A study of Mus musculus with 4 samples.

Results

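The genes of the Trim30 and Trim12 cluster were examined in cultured myoblasts of WT and Tet2 KO mice. The cluster lies on chromosome 7 of the mouse genome build mm9, and Trim21, a further gene of the same family, lies apart from it on the same chromosome, on the side of Trim34a. The genes were selected by name from the deposited expression table: Trim30a, Trim30b, Trim30c, Trim30d, Trim12a, Trim12c, Trim34a and Trim21. Of these 8 genes, 7 were found among the 24445 genes of the table. Trim30c had no row of that name and was not analysed here. The difference of Trim30a between the groups was already known when the genes were chosen, so all values are given as a description and no test was made on them.

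RNA was sequenced from 2 WT libraries and 2 Tet2 KO libraries, all on the C57BL/6 background. The Tet2 KO mice carried a constitutive deletion of an exon of Tet2 made by homologous recombination, so every cell of the animal lacked it, and the study's methods name young adult males as the usual animals. The cultures were started from hindlimb satellite cells, which are muscle stem cells, obtained in a sort for CD34 and the integrin alpha 7 chain that excluded CD45+, CD11b+, CD31+ and Sca1+ cells. Both groups were cultured on a collagen coat in one proliferation medium, and RNA was taken once the cells had become MyoD+ myoblasts. The labels do not say whether the 2 libraries of a group came from separate animals. Expression was given as 1 FPKM value per gene and group (fragments scaled by transcript length and by the total mapped), which combines the libraries of the group. With no value per library to use, no level below has an SD, an n or a p-value, and each difference is one between 2 combined values.

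Trim proteins carry a RING finger, a B-box and a coiled coil, and most act as ubiquitin ligases. Many of them end in a B30.2 (SPRY) domain that binds their target. The Trim30, Trim12, Trim5 and Trim34 genes arose by repeated duplication at a locus known for defence against retroviruses, and many of them are transcribed in response to interferon. Trim30a is known as an inhibitor of signalling from Toll-like receptors to NF-kappaB. Trim12a and Trim12c are mouse relatives of the primate restriction factor TRIM5. Trim21 is a receptor in the cytosol for antibodies that enter the cell bound to a pathogen.

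The promoters are shown first because many genes of the cluster are known to be transcribed in response to interferon. No response to interferon was measured here. RefSeq promoters of the build GRCm38.p6, each with 250 bases before and 50 bases after the start site, were found for all 8 genes, and each matched mm9 at a single place. They were searched on both strands for the core of the interferon-stimulated response element, spelled GAAANNGAAA (TTTCNNTTTC when read on the other strand). It was present for 6 of the 8 genes, and for 3.99% of the 27025 genes with a promoter in the RefSeq table. The 30 bases around each match are printed below along the transcribed strand, with the matching letters in capitals.

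Trim30a: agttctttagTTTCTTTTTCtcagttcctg
Trim30d: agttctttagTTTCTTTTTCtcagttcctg
Trim12a: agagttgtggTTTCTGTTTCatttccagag
Trim12c: agagttgtggTTTCTGTTTCatttccagct
Trim34a: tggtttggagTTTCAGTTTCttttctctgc
Trim21: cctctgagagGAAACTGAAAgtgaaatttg

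These windows lie on the minus strand at chr7:111613724-111613753 (Trim30a), chr7:111656385-111656414 (Trim30d), chr7:111463980-111464009 (Trim12a), chr7:111501873-111501902 (Trim12c) and chr7:109713964-109713993 (Trim21), and on the plus strand at chr7:111392971-111393000 (Trim34a), all in mm9. The match began 36 bases before the start site in Trim30a, 41 before it in Trim30d and 29 before it in Trim12c. It began at transcribed base 11 in Trim12a and Trim34a and at base 14 in Trim21, where a second match at base 20 overlaps the first. Trim30a has a second annotated start site, and its promoter there held the same core at base 3. Trim30b and Trim30c had no match in their windows. Of the further Trim genes searched nearby, Trim5 had a match and Trim34b, Trim6 and Trim68 had none. The core of the gamma-activated site, TTCNNNGAA, which reads the same on both strands, was found in Trim30c alone among the 8 genes and in 9.55% of all genes with a promoter. A match is a run of letters and not a measured binding site.

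The windows also show how alike the copies are. Over the whole promoter, Trim30a and Trim30d were identical at 276 of 295 aligned bases (93.6%), and Trim12a and Trim12c at 247 of 260 (95%). The promoter of Trim5, a cluster gene with no place among the 8, was identical to that of Trim12a at all 241 aligned bases. Trim30a and Trim30d were both listed higher in Tet2 KO. The core was also present for Trim12a, Trim12c, Trim34a and Trim21, whose directions differed, and its part in any of these levels was not tested. The 100 bases just upstream of the first start site of Trim30a (chr7:111613708-111613807, minus strand) and of Trim30d (chr7:111656364-111656463, minus strand) are given in full, with the same letters in capitals.

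Trim30a: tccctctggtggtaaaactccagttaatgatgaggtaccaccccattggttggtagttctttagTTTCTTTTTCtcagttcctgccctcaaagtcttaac
Trim30d: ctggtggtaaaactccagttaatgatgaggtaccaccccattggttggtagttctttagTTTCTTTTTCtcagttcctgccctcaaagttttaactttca

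Coding sequences were compared because reads from copies can be credited to the wrong gene. The first 60 coding bases are shown for Trim12a and Trim12c and for Trim30a and Trim30d, with the bases that differ within a pair in capitals. Each stretch lies in exon 2, on the minus strand of mm9, at chr7:111455786-111455845 (Trim12a), chr7:111496802-111496861 (Trim12c), chr7:111584456-111584515 (Trim30a) and chr7:111636450-111636509 (Trim30d).

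Trim12a: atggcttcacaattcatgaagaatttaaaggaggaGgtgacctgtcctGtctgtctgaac
Trim12c: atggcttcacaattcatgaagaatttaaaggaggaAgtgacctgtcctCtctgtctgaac
Trim30a: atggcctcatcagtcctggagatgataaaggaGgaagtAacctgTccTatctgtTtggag
Trim30d: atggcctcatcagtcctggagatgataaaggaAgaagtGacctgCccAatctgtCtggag

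In these stretches 2 bases differed between Trim12a and Trim12c and 5 between Trim30a and Trim30d. Over the longest coding sequences in GENCODE vM1, an annotation of the same build, identity was 89.8% between Trim12a and Trim12c and 90.2% between Trim30a and Trim30d. Trim30b was identical to Trim30a at 86.4% and to Trim30d at 84.5% of aligned coding bases, and Trim12c to Trim5 at 96.6%. Between the groups of copies identity was lower, for example 73.3% between Trim30a and Trim12c. Trim34a and its copy Trim34b were identical at 98.8% of aligned coding bases. The coding sequence of Trim12a was 984 bases long, against 1494 bases in Trim12c, and Trim12a is known to lack the B30.2 (SPRY) domain.

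To see how much of each transcript a short read could place, transcripts were cut into overlapping words of 50 bases. Of the words of Trim12a, 10.4% were also found in Trim12c and 13.2% in Trim5. Of the words of Trim34a, 38.3% were found in Trim34b. Part of this share is one stretch annotated under both names, since the GENCODE vM1 model of Trim34a runs through Trim34b. There, 47.4% of the exonic bases of Trim34b overlap exons of Trim34a or Trim12a. Trim30a shared 3.36% of its words with Trim30d, and Trim21 shared none with any other coding gene of the annotation. Most of the annotated sequence of Trim30a and Trim12a was therefore private to each gene. Trim34a and Trim34b were hard to separate, given their identity at 98.8% of aligned coding bases.

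**Figure D1:**
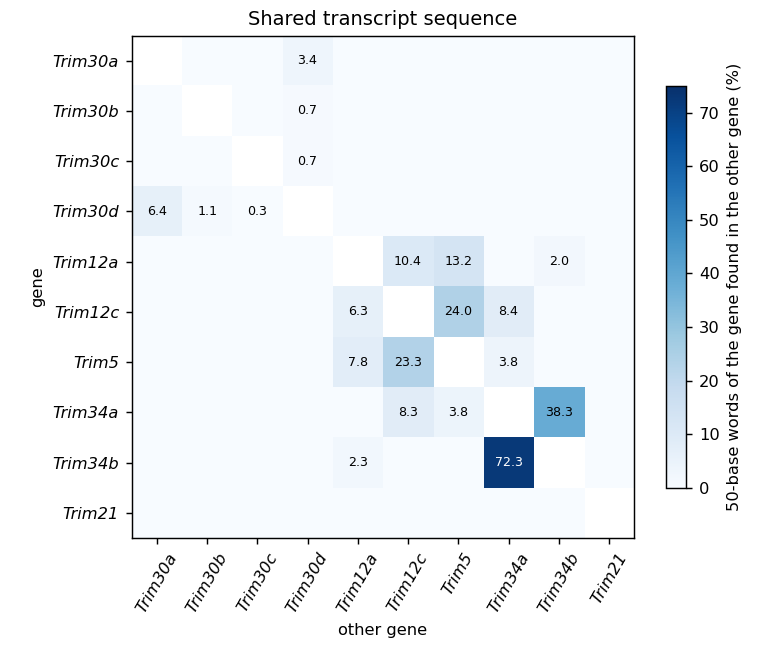
Share of the 50-base words of each gene (rows) that was also found in the transcripts of another gene (columns), in percent, from GENCODE vM1 coding transcripts; empty cells off the diagonal are 0. Sharing was highest between Trim34a and Trim34b (38.3% and 72.3%), in part from exons annotated under both names, and absent for Trim21.

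Signs that bear on these levels were measured over the whole table. Tet2 itself had 5.79 FPKM in Tet2 KO against 6.64 in WT, and a value over all exons does not check the deleted exon. All 8 myoblast markers were present, from Pax7 (11.0 and 11.1 FPKM in Tet2 KO and WT) to Myog (268 and 554 FPKM). Leukocyte markers were present as well, although CD45 and CD11b had been used to remove such cells. Of 22 leukocyte markers, 21 were in the table, all 21 were higher in Tet2 KO, and 19 were past 2-fold. Their summed level was 603 FPKM in Tet2 KO against 154 in WT, and none was at 0 in either group. Ptprc, which encodes CD45, had 5.67 and 1.36 FPKM, and Itgam, which encodes CD11b, had 10.1 and 2.09 FPKM. The 10 lymphocyte markers stayed at or below 1.09 FPKM. In RNA of a whole culture, fewer cells of a type and less RNA per cell cannot be told apart.

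FPKM is scaled by transcript length, so levels may be compared between genes. The 7 genes spanned a wide range. Trim21 was the most abundant, with 12.9 FPKM in Tet2 KO against 14.1 in WT. Trim12c came next, with 12.4 FPKM in Tet2 KO against 9.80 in WT. Trim34a, Trim30a and Trim12a had means of 2.60, 2.24 and 1.07 FPKM over the groups. Trim30d had a mean of 0.316 FPKM, and Trim30b was near 0 in both groups. Ranked among all genes of the table by mean level, Trim21 was at the 75.9 percentile, Trim12c at 73.1, Trim30a at 57.1, Trim12a at 52.6 and Trim30b at 19.6, so none was among the most abundant transcripts of the cultures. Trim21 and Trim12c held ranks 1 and 2 in both groups, while Trim30a moved from rank 5 in WT to rank 3 in Tet2 KO. Trim12a moved from rank 4 in WT to rank 6 in Tet2 KO. Without values per library, no pair of neighbours in this order can be tested for a difference.

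**Figure D2:**
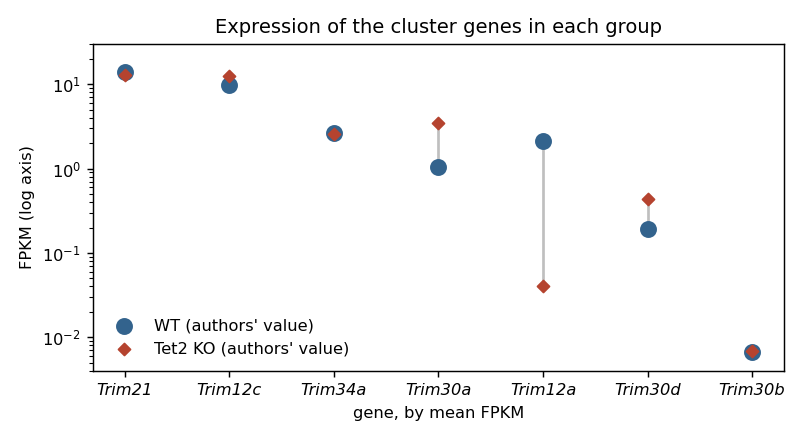
FPKM of the 7 genes (log axis), ordered by their mean over the groups, with the authors' combined value of WT (circles) and of Tet2 KO (diamonds). The values nearly coincide for Trim21, Trim34a and Trim30b, Trim30a and Trim30d lie higher in Tet2 KO, and Trim12a lies far lower in Tet2 KO.

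The 3 Trim30 genes with a row were described first. Trim30a occupies chr7:111557540-111613707 on the minus strand and has 8 exons in its longest coding transcript. It had 3.44 FPKM in Tet2 KO against 1.04 in WT, which is 3.29-fold higher in Tet2 KO. On the scale of log2(FPKM + 1), which shrinks differences at low FPKM, its log2 ratio of Tet2 KO over WT was 1.12. Trim30d, its neighbour at chr7:111618529-111656363, had 0.440 FPKM in Tet2 KO against 0.193 in WT, 2.27-fold higher in Tet2 KO. Both genes were thus listed higher in Tet2 KO, and Trim30d was the lower of the pair in both groups. The log2 ratio of Trim30d was 0.27 at a pseudocount of 1 and 1.19 with none, so its side of the 2-fold limit depends on the pseudocount. Trim30b, at chr7:111503912-111507160, had 0.00695 FPKM in Tet2 KO against 0.00663 in WT. Summed over Trim30a, Trim30b and Trim30d, the level was 3.89 FPKM in Tet2 KO against 1.24 in WT, of which Trim30a made up 88.5% and 83.9%. The leukocyte markers moved the same way as Trim30a, with a median log2 ratio of 1.60 over the 21 genes, from 0.94 for Cd68 to 2.07 for Lyz2. Their part in the level of Trim30a was not tested.

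Trim12a and Trim12c differed from each other in direction. Trim12a, at chr7:111448411-111473352 in the table, had 0.0404 FPKM in Tet2 KO against 2.11 in WT (log2 ratio -1.58.) Trim12c, at chr7:111487268-111501872, had 12.4 FPKM in Tet2 KO against 9.80 in WT (log2 ratio 0.31.) Added together, the copies had 12.5 FPKM in Tet2 KO against 11.9 in WT (log2 ratio 0.06.) Trim12a made up 0.324% of this sum in Tet2 KO and 17.7% in WT. The groups differed more in how the level was divided between the copies than in the sum. The sum holds mostly Trim12c, so it does not gauge Trim12a by itself. Trim5, whose promoter aligned to that of Trim12a without a mismatch, was listed at 0 in Tet2 KO and had 0.305 FPKM in WT. The row of Trim5 is uncertain too, since 23.3% of its 50-base words were also found in Trim12c. Its promoter matched mm9 at 2 places.

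The row of Trim12a is uncertain in several ways. In the table it shares its locus with Gm15133, which had 0.0288 FPKM in WT and was listed at 0 in Tet2 KO. The library kit used does not mark strand, so reads of overlapping genes on opposite strands cannot be told apart. In GENCODE vM1, exons of other genes covered 1.64% of the exonic bases of Trim12a, all of them exons of Trim34b on the opposite strand. For Trim12c the share was 10.8%, all of it from exons of Trim34a. By the loci listed with the FPKM values, Trim34b does not reach Trim12a and Trim34a does not reach Trim12c. These shares of exonic bases therefore do not describe the rows. Of the 50-base words of Trim12a, 22.4% were found in some other coding gene. With words of 100 bases, 1.60% of those of Trim12a were found in Trim12c and 5.20% in Trim5. How the authors' program divided reads that matched several copies was not stated, and its part in the level of Trim12a was not tested.

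Trim34a, an interferon-induced gene at chr7:111392971-111410750 on the plus strand, had 2.58 FPKM in Tet2 KO against 2.63 in WT (log2 ratio -0.02.) Its near-identical copy Trim34b had 1.81 FPKM in Tet2 KO against 1.41 in WT. The copies together had 4.39 FPKM in Tet2 KO against 4.03 in WT (log2 ratio 0.10.) Trim34a alone was slightly lower and the sum slightly higher in Tet2 KO, and both ratios were small. The separate values are uncertain, since the copies were identical at 98.8% of aligned coding bases. In GENCODE vM1, 44.4% of the exonic bases of Trim34a overlap exons of other annotated genes. Its model there runs on to chr7:111489207, far past the end of the locus given above, so this share does not describe the row.

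Trim21, at chr7:109706434-109713996 on the minus strand, is the most distant of the 7 genes and the only one of them that shared no 50-base word with another coding gene. It had 12.9 FPKM in Tet2 KO against 14.1 in WT (log2 ratio -0.11.) The genes with the most similar pair of levels were Zfp68, Tmem237 and Ubr3, at distances of 0.0097, 0.0113 and 0.0146 on the log2(FPKM + 1) scale over the 2 group values. Likeness over 2 values says only that the levels were similar. Of 6 genes whose products work with Trim21, 5 were in the table, with a median log2 ratio of -0.05 and none past 2-fold.

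The number of fragments behind these levels can be gauged from the lowest values of the table. Short olfactory receptor genes, most of which were at 0 or a few steps above it, had values in regular steps once multiplied by their length. Up to 5 steps, 98.6% of 279 such values in Tet2 KO and 97.8% of 406 in WT lay within 0.1 step of a whole number. A step was worth 0.0228 FPKM in Tet2 KO against 0.0225 in WT for a locus of 1 kb, and is read here as about 1 fragment. With the longest annotated transcript of each gene, Trim30a then rested on about 619 fragments in Tet2 KO and 190 in WT. Trim30d rested on about 63.3 and 28.1 fragments. Trim12a rested on about 2.71 fragments in Tet2 KO and 143 in WT, and Trim30b on about 0.928 and 0.895. These figures are rough, since the length the authors' program used is not known. They show that Trim30b was at the limit of detection in both groups and that Trim12a was near it in Tet2 KO.

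The ratios were set beside those of all genes. Of the 24445 genes, 11692 had a mean of at least 1 FPKM over the groups, with a median log2 ratio of -0.0044. A gene was counted as past 2-fold when its log2 ratio reached 1 in either direction, which is a size and not a test. Among the 11692 genes, 2.08% were past 2-fold higher in Tet2 KO and 1.21% were past 2-fold lower. Of the 7 Trim genes, 5 reached the mean of 1 FPKM, namely Trim21, Trim12c, Trim34a, Trim30a and Trim12a. Trim12a reached it through WT alone. Of these 5, Trim30a was past 2-fold higher and Trim12a was past 2-fold lower, and their median was -0.02. Nothing is read from these counts, since Trim30a was chosen with its values known. Trim21, Trim34a and Trim12c lay within 0.5 of 0, as did 92.1% of all genes.

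**Figure D3:**
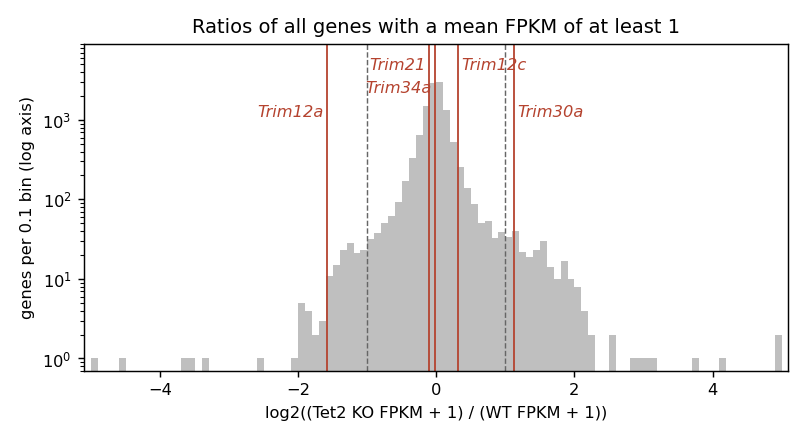
Number of genes per 0.1 bin of the log2 ratio of Tet2 KO over WT at a pseudocount of 1 (log axis), for the 11692 genes with a mean of at least 1 FPKM, with red lines for the 5 Trim genes at that level, dashed lines at 2-fold, and the 2 genes beyond 5 in either direction drawn in the last bins. Trim30a (1.12) and Trim12a (-1.58) lie outside the dashed lines.

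From Trim6 to Trim30d the order was Trim6, Trim34a, Trim5, Trim12a, Trim34b, Trim12c, Trim30b, Trim30a and Trim30d. From Trim6 to Trim12a the values were lower in Tet2 KO, slightly so for Trim34a and for Trim6. Trim6 was near 0 in both groups, with 0.0688 FPKM in Tet2 KO against 0.0919 in WT. From Trim34b to Trim30d they were higher, with Trim30b all but equal in the groups. Trim5 and Trim12a lay between Trim34a and Trim34b, whose values were close in the groups and hard to separate from each other. Trim30a and Trim30d, with higher values, lay side by side at the end of the cluster. The table held 142 other genes from 500 kb before Trim21 to 500 kb beyond Trim30d, of which 109 were olfactory receptor genes. Of the 142, 12 had a mean of at least 1 FPKM, none of them was past 2-fold higher, and 1 was past 2-fold lower. This was Art1, an ADP-ribosyltransferase gene, with 3.83 FPKM in Tet2 KO against 10.5 in WT. Art5, the gene beside it, had 0.812 FPKM in Tet2 KO against 2.56 in WT. Its log2 ratio of -0.97 at a pseudocount of 1 fell just short of 2-fold.

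**Figure D4:**
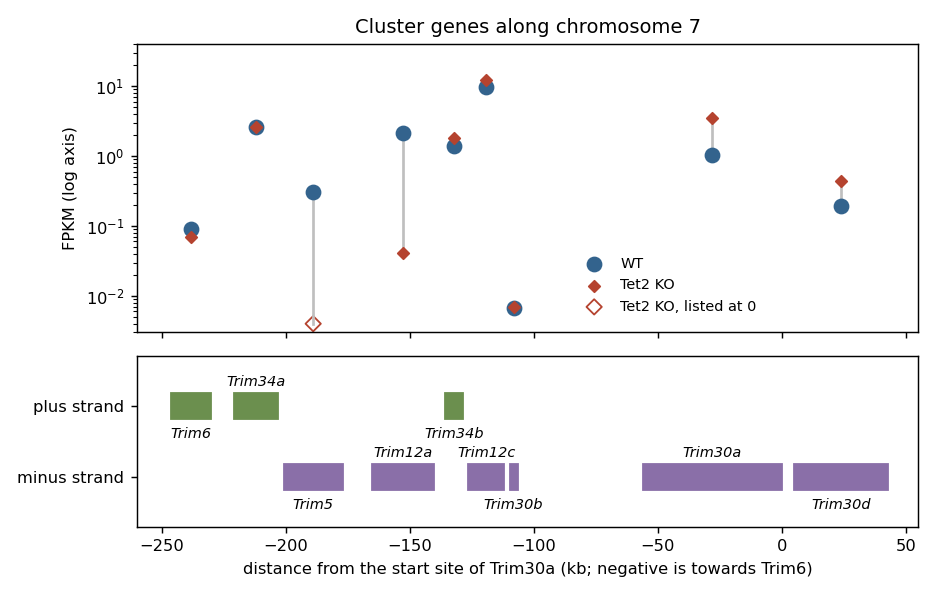
In the upper panel, FPKM (log axis) of the cluster genes in WT (circles) and Tet2 KO (diamonds), placed at the middle of each locus; an open symbol marks a gene listed at 0, and the lower panel shows the loci of the table by strand, against the distance in kb from the start site of Trim30a; the box of Trim12a is the locus it shares with Gm15133. Trim30a and Trim30d at the right end are higher in Tet2 KO, and Trim5 and Trim12a are lower.

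The rest of the Trim family was used for comparison. The table held 61 other Trim genes, 29 of them with a mean of at least 1 FPKM, and their median log2 ratio was -0.02. None of the 29 was past 2-fold higher, and 3 were past 2-fold lower. Trim63, a ubiquitin ligase of the sarcomere also named MuRF1, had 2.57 FPKM in Tet2 KO against 10.2 in WT. Trim54, its relative MuRF3, had 5.70 and 13.9 FPKM. Trim72, which encodes the membrane repair protein MG53, had 15.0 and 40.9 FPKM. These 3 are genes of differentiated muscle, unlike the genes of the cluster. The paper itself reports Trim63 as unchanged in Tet2 KO, in a separate measurement beside its work on differentiation. Its text does not give the stage of the cells measured there. The highest of the other Trim genes were Trim28 (205 and 206 FPKM), Trim35 (61.6 and 77.4 FPKM) and Trim59 (36.7 and 33.4 FPKM in Tet2 KO and WT).

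**Figure D5:**
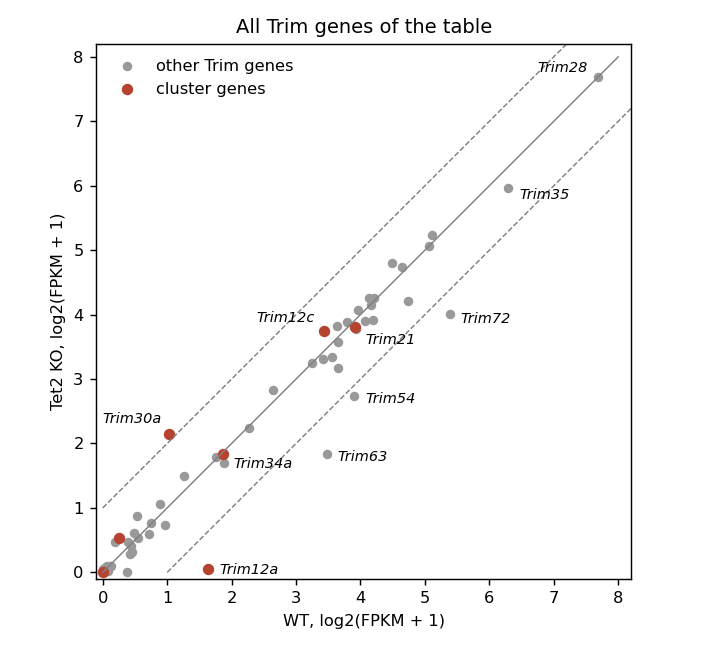
Level of every Trim gene of the table in WT (x axis) and Tet2 KO (y axis), on the log2(FPKM + 1) scale, with the 7 genes in red and the other 61 in grey; the solid line is equality and the dashed lines are 2-fold. Trim30a is the only point above the upper dashed line, and Trim12a, Trim63, Trim54 and Trim72 lie below the lower one.

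Genes that act before or beside the cluster were then described as lists. Of 35 interferon-stimulated genes, 34 had a mean of at least 1 FPKM, and none was past 2-fold in either direction at a pseudocount of 1. With a pseudocount of 0.1 or none, 1 was past 2-fold lower, the helicase gene Ddx60, with 8.95 FPKM in Tet2 KO against 18.4 in WT. Their median log2 ratio was -0.03, with 16 higher and 18 lower, from -0.97 for Ddx60 to 0.47 for Gbp2. The list of 22 genes of interferon sensing and signalling had a median of 0.15, with 18 higher and 4 lower. Irf5, a transcription factor gene used by myeloid cells, was the 1 gene past 2-fold, with 5.31 FPKM in Tet2 KO against 2.15 in WT. Its log2 ratio of 1.00 was at the limit itself. No gene of this list was past 2-fold at a mean of at least 5 FPKM, or with genes that share a locus left out.

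Of 21 genes of the route from Toll-like receptors to NF-kappaB and of the inflammasome, 20 had a mean of at least 1 FPKM, with a median log2 ratio of 0.03. Tab2 and Tab3, which encode adaptor proteins that Trim30a is known to act on, had log2 ratios of 0.01 and 0.12. Casp1 and Pycard, which encode the protease and the adaptor of the inflammasome, were past 2-fold higher. Casp1 had 6.88 FPKM in Tet2 KO against 1.84 in WT, and Pycard had 7.79 and 3.19 FPKM. Irf5, Casp1 and Pycard are all expressed in myeloid cells, and the leukocyte markers were higher as well. The part of such cells in these levels was not tested. The 15 housekeeping genes had a median of 0.03, with none past 2-fold. The 6 fibroblast markers had a median of 0.32 over 5 genes with a mean of at least 1 FPKM, with none past 2-fold at a pseudocount of 1. With a pseudocount of 0.1 or none, 1 was past 2-fold higher, Dcn, with 7.04 FPKM in Tet2 KO against 3.15 in WT. Of the 6 endothelial markers, 1 reached that mean, Pecam1, at -0.08. Of the 8 myoblast markers all were lower in Tet2 KO, with a median of -0.15, and Myog alone was past 2-fold, at -1.04.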

How the data were processed

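The 4 libraries were mRNA libraries made from total RNA. Per the labels and the study's methods, the authors trimmed reads, aligned pairs to mm9 with TopHat 2.0.13 and estimated expression with Cuffdiff 2.2.1. The annotation is not given in the sources used here. The deposited table holds FPKM, 1 value per gene and group, so depth per library is unknown. Its columns of fold change, statistic, p-value and q-value are the authors' own comparison and were not used.

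Ratios were computed as log2((Tet2 KO FPKM + 1) / (WT FPKM + 1)). Genes with a mean of at least 1 FPKM were compared, and 2-fold was used as a size. No test was possible with 1 value per group. The ratio and counting steps were tested on simulated data. Ube2d2 and Emr1, named in the lists, had no row of that name. The genes and lists were chosen with earlier results of these data known.

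Named were all 8 genes, the highest Trim genes, those past 2-fold, the neighbours within 500 kb, list extremes and the genes most like Trim21. Other genes named (Trim5, Trim34b, Gm15133, Tab2, Tab3, Ptprc, Itgam) were chosen after values were seen. Coordinates are those of the table, with 1 added to each start. Sequences came from RefSeq (GRCm38.p6 promoters, matched to mm9) and GENCODE vM1. Identity was taken over aligned bases with Biopython 1.88. Python 3.11.15, numpy 2.4.6, pandas 2.3.3 and matplotlib 3.10.9 were used. Results for some listed genes are not reported here.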

Additional observations from a re-analysis of the deposited data

How the results depend on the processing

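No paired analysis was possible because the libraries of a group were given as 1 combined value. Settings without one of the libraries could not be run either. The alternatives that sum copies were chosen after seeing the data. The sum of Trim12a with Trim12c had a log2 ratio of 0.060, against -1.58 for Trim12a alone. Trim12a made up 0.324% of that sum in Tet2 KO and 17.7% in WT, so the sum holds mostly Trim12c and does not gauge Trim12a by itself. Under the other alternatives that kept its row, Trim12a stayed lower in Tet2 KO, from -5.70 to -1.57. The sum of Trim34a with Trim34b had a log2 ratio of 0.10, against -0.02 for Trim34a alone. The ratios of Trim30a (from 1.12 to 1.72), Trim12c (from 0.31 to 0.34) and Trim21 (from -0.12 to -0.11) kept their direction under every other alternative run. Without a pseudocount Trim12a reached -5.70. The counts of Trim genes past 2-fold went from 1 higher and 1 lower to 0 and 0 at a mean of at least 5 FPKM, which only Trim21 and Trim12c reach. Leaving out genes that share a locus removed Trim12a and left 0 lower. The median of the Trim genes, -0.02 over 5 genes, turned to 0.00046 over 7 genes with no filter, to 0.10 over 2 genes at a mean of at least 5 FPKM and to 0.15 over 4 genes with shared loci left out, since each setting takes the median over a different set of genes. Over all genes, 243 were past 2-fold higher and 142 lower. The number lower was 215 at a pseudocount of 0.1 and 224 with none. The number higher was 109 at a mean of at least 5 FPKM, and 1.5-fold gave 435 higher and 338 lower. The share higher among genes past 2-fold was 63.1%, and 50.7% at a mean of at least 5 FPKM. Trim30d passed 2-fold without a pseudocount (1.19). Low values limit Trim30b, Trim30d and Trim12a most.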
